A study of Mus musculus with 6 samples.

Results

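The tumour necrosis factor (TNF) superfamily ligands form a family of signalling proteins that T cells show on their surface or release after activation. They were examined here as 10 genes, Tnf, Lta, Ltb, Tnfsf11, Fasl, Cd40lg, Tnfsf4, Tnfsf8, Tnfsf10 and Tnfsf14. Members were taken by gene symbol, from GEO's annotation of the array, which gave 13 probe sets for these 10 genes out of 22690 probe sets and 12393 genes in all. Expression was measured in activated CD4 T cells of 3 miR-155 knockout (KO) mice and 3 wild-type (WT) mice, all on the C57BL/6 background. The series description puts each array on cells of its own mouse. The knockout is of the germline in the published line that the submitters cite, so cells other than T cells lacked the microRNA too. The age of the mice is not given in the sources used here. Cells of both genotypes were purified from spleen and lymph nodes by beads against CD4. They spent 3 days on antibodies that engage CD3 and CD28 (1 µg/mL), with interleukin 2 (20 U/mL) added to all cultures.

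Most ligands of this family are made as trimers anchored in the plasma membrane, where they act on a neighbouring cell or are cut off by proteases. Their receptors either recruit TRAF adaptor proteins, which switch on NF-kappa B and promote survival and growth, or carry a death domain that starts apoptosis. In CD4 T cells many of the ligand genes are switched on by T cell receptor signals through NFAT, NF-kappa B and AP-1 factors. The ligands carry help to B cells and dendritic cells, organise lymphoid tissue and end responses by killing activated cells. MiR-155 is a microRNA that is itself induced in activated T cells and that lowers transcripts carrying matches to its seed, the stretch that pairs with a target.

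The mature strands of the deleted microRNA are given as RefSeq lists them on assembly GRCm38.p6 (chromosome 16, plus strand), with the seed, bases 2 to 8, in capitals, because the genotypes differ in these molecules. The 5p strand lies at chr16:84714143-84714165 and the 3p strand at chr16:84714182-84714202.
mmu-miR-155-5p: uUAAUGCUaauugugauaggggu
mmu-miR-155-3p: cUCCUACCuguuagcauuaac

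Of the 10 ligand genes, 8 matched a promoter in the RefSeq table of assembly GRCm38.p6, and 4 are shown because the results turn on them. Lta, Tnf and Ltb lie side by side on chromosome 17 and had unlike differences between the genotypes, and Fasl had the pattern closest to Lta among all genes tested. Each sequence runs from 250 bases before to 50 bases after the start of the gene, in the direction of the gene. Capitals mark GGAAA on either strand (written TTTCC where it lies on the opposite strand), the core to which NFAT factors bind and which also occurs inside some NF-kappa B and ETS elements. The windows are chr17:35205302-35205601 (minus strand) for Lta, chr17:35201958-35202257 (minus strand) for Tnf, chr17:35194257-35194556 (plus strand) for Ltb and chr1:161788446-161788745 (minus strand) for Fasl.
Lta: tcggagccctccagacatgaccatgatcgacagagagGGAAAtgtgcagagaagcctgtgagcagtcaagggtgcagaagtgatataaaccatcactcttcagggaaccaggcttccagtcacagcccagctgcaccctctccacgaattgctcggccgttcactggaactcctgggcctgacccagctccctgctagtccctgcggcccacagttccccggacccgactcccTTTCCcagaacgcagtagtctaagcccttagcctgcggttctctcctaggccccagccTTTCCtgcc
Tnf: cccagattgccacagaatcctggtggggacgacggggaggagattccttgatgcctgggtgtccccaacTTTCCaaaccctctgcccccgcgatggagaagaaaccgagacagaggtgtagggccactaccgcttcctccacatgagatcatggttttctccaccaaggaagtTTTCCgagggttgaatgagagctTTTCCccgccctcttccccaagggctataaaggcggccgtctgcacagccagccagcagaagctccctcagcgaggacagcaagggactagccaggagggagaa
Ltb: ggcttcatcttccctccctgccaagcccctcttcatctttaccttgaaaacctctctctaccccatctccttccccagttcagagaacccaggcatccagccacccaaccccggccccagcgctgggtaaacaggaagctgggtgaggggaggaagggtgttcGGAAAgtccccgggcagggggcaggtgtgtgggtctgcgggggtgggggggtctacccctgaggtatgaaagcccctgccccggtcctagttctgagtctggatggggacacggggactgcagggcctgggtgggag
Fasl: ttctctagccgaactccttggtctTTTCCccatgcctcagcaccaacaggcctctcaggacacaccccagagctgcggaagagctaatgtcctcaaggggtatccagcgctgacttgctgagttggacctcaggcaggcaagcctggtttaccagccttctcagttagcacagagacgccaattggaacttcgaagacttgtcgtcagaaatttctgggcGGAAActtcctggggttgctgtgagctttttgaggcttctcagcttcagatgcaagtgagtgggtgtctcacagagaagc

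The core GGAAA was present in 8 of the 8 ligand promoters in the table and in 61.3% of 32851 promoters of the same length. Tnfsf14, whose transcript differed by 0.055, held 4 matches, Lta and Tnf 3 each, Fasl 2, and Ltb, Tnfsf11, Tnfsf8 and Tnfsf10 1 each. The 1 match in Ltb overlapped a match to the NF-kappa B consensus, which 4.51% of all promoters held and no other ligand promoter did. The AP-1 element TGANTCA was found in the Tnfsf14 window alone among the ligands, against 7.81% of all promoters, and TATAAA in Tnf, Lta and Tnfsf11, against 13.6%. All motifs were searched on both strands. These matches describe the letters of the windows, and no binding was measured here.

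Before the ligands, the arrays themselves were compared. The host transcript of the deleted microRNA, Mir155hg, measured 3.51 to 4.45 on the KO arrays and 6.59 to 8.21 on the WT arrays, in log2 units, so every array lay on the side of its label. Markers of CD4 T cells were bright, with Cd3d at 13.3 or more on the KO arrays and 12.8 or more on the WT arrays, and Cd4 between 8.83 and 9.25 on all 6. Of 8 such markers tested, 2 were higher in KO at an unadjusted limma p under 0.05 and 0 lower, with a median difference of 0.22, where 3.57% of all genes tested were higher at that p. KO replicate 1 stood apart, its mean over 18 cell cycle genes being 9.63. KO replicates 2 and 3 had 10.6 and 10.4, and each WT array had 10.8. Sex-linked transcripts followed the replicate number in both genotypes. Xist was high and the Y-linked Eif2s3y low on both arrays numbered 1 (13.4 and 3.50 in KO, 13.1 and 3.44 in WT), and the reverse held on both numbered 2 (5.94 and 10.4 in KO, 5.66 and 10.5 in WT). On both arrays numbered 3, Xist and Eif2s3y were high together (12.6 and 10.05 in KO, 12.6 and 10.21 in WT), although each array is described as cells of 1 mouse. With the 2 arrays numbered 3 left out, the ligand differences were -1.70 for Lta, -1.89 for Tnfsf11, -1.57 for Tnfsf4, -1.25 for Fasl and -0.69 for Tnf, each with an unadjusted limma p under 0.05. The other 5 ligands then lay between -0.30 (Tnfsf10) and 0.43 (Tnfsf14), none at that p.

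Between the genotypes, 5 of the 10 ligand transcripts were lower in KO cells. These were Lta, Tnfsf11, Fasl, Tnfsf4 and Tnf, with log2 differences (KO minus WT) of -1.70, -1.57, -1.33, -1.03 and -0.57, or 3.25-fold, 2.98-fold, 2.52-fold, 2.05-fold and 1.49-fold lower. The other 5, Cd40lg, Tnfsf10, Tnfsf14, Tnfsf8 and Ltb, lay between -0.15 and 0.24 with intervals that span 0. Because the RNA came from whole cultures, fewer cells of a kind and less RNA per cell cannot be told apart. All 10 passed the filter on dim genes. None passed limma's test with Benjamini-Hochberg adjustment over 9295 genes (adjusted p = 0.631 for each of the 5 lower ligands), and 0 genes passed in the whole table, or 0%. At an unadjusted limma p under 0.05, 5 ligand genes were lower and 0 higher, where 3.86% of all genes tested were lower, 3.57% higher and 7.43% either. A log2 difference of -1 or lower was reached by 4 ligands and by 26 genes of the whole table, or 0.280%. Among those 26 genes Lta ranked as number 3, Tnfsf11 as number 5, Fasl as number 8 and Tnfsf4 as number 23. The median over the 10 ligands was -0.36, and that over all genes tested was -0.0036. The ligands were chosen with earlier results of these data known, so these comparisons with all genes are description and were not tested.

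**Figure D1:**
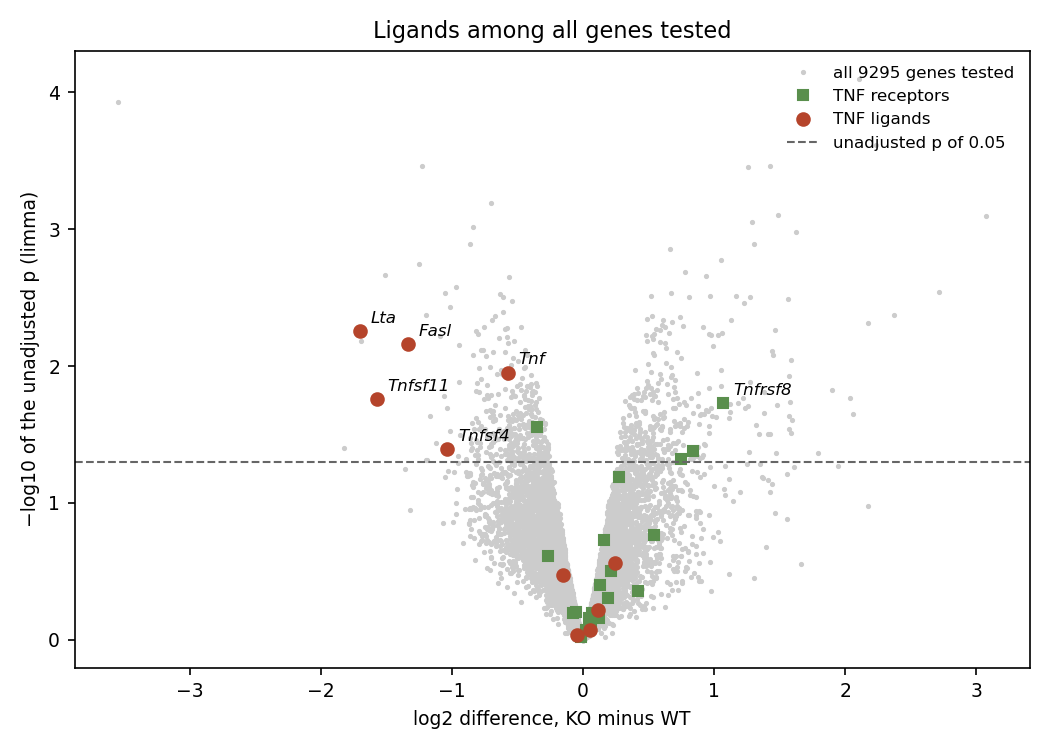
Each point is 1 of 9295 genes, with the log2 difference (KO minus WT) on the horizontal axis and −log10 of the unadjusted limma p on the vertical axis. The 10 ligands are red circles and the TNF receptors green squares. Lta, Tnfsf11, Fasl, Tnfsf4 and Tnf lie above the dashed line at an unadjusted p of 0.05 on the left side, and of the receptors Tnfrsf8 lies farthest to the right, at 1.07.

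The arrays of both genotypes did not overlap for 3 ligands, Lta, Fasl and Tnf, each lower in KO, where 6.92% of all genes tested did so in that direction. For these 3 the exact two-sided permutation test over arrays gave p = 0.1, the smallest that 3 against 3 arrays allow. Arrays without overlap always give that value, so the test adds nothing to the lack of overlap. For the other lower ligands, Tnfsf11 and Tnfsf4, the exact permutation test gave p = 0.2 and p = 0.3.

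Lta encodes lymphotoxin alpha, which is secreted and binds the TNF receptors, and which also joins lymphotoxin beta in a complex on the membrane. It measured 8.70, 7.62 and 7.82 on KO replicates 1, 2 and 3, against 10.5, 9.18 and 9.53 on WT replicates 1, 2 and 3. The means were 8.05 ± 0.58 in KO and 9.75 ± 0.70 in WT (SD, n = 3 each). The highest KO value lay 0.48 log2 units below the lowest WT value, and in each genotype replicate 1 was the highest. The difference was -1.70 ± 0.42 (SE), with a 95% interval of -2.71 to -0.69 and an unadjusted limma p of 0.00555.

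Fasl encodes the Fas ligand, with which activated T cells kill Fas-bearing cells, other activated T cells included. The brighter of its probe sets measured 7.67, 7.12 and 6.58 on the KO arrays, against 9.01, 8.29 and 8.07 on the WT arrays. Its dimmer probe set measured 7.16, 6.60 and 6.33 in KO, against 8.22, 7.56 and 7.27 in WT. With either probe set, all KO arrays lay below all WT arrays. The difference was -1.33 (95% interval -2.16 to -0.51) for the brighter probe set, with an unadjusted limma p of 0.00691. For the dimmer one it was -0.99, with an unadjusted limma p of 0.0158 in the fit of all probe sets.

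Tnf encodes the founding cytokine of the family, which drives inflammation through the receptors Tnfrsf1a and Tnfrsf1b. It measured 7.41, 7.64 and 7.71 in KO, against 8.43, 7.99 and 8.04 in WT. The means were 7.58 ± 0.16 in KO and 8.15 ± 0.24 in WT (SD, n = 3 each), and the nearest arrays of the genotypes were 0.28 log2 units apart. KO replicate 1 was the lowest KO array for Tnf and the highest for Lta and Fasl. The difference was -0.57 ± 0.16 (SE), with a 95% interval of -0.96 to -0.18 and an unadjusted limma p of 0.0112. Of the 5 lower ligands Tnf had the smallest difference and the smallest SD within each genotype.

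Tnfsf11 encodes RANKL, known for driving osteoclast formation, lymph node development and the survival of dendritic cells. The brighter probe set measured 5.82, 7.21 and 6.14 in KO, against 8.67, 8.14 and 7.08 in WT. KO replicate 2 lay above WT replicate 3, so the genotypes overlapped by 1 pair of arrays. The dimmer probe set measured 4.54, 5.43 and 4.76 in KO, against 6.80, 6.30 and 5.53 in WT, with no overlap. The differences were -1.57 (95% interval -2.77 to -0.38) and -1.30, with unadjusted limma p of 0.0175 and, in the fit of all probe sets, 0.0109. Over the 13 probe sets of the family, 7 had an unadjusted limma p under 0.05 and all 7 were lower in KO, beside 3.33% of 22626 probe sets, although probe sets of 1 gene share their RNA.

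Tnfsf4 encodes the ligand of OX40, a costimulatory receptor on T cells, and is usually described on antigen-presenting cells as well as on activated T cells. It measured 5.63, 6.74 and 6.77 in KO, against 7.82, 7.68 and 6.74 in WT. WT replicate 3 was level with KO replicates 2 and 3, so the difference rests on WT replicates 1 and 2 and on KO replicate 1. The mean difference was -1.03 ± 0.41 (SE), with a 95% interval of -2.01 to -0.059 and an unadjusted limma p of 0.0406. Without KO replicate 1 it was -0.66, with an unadjusted limma p of 0.101.

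**Figure D2:**
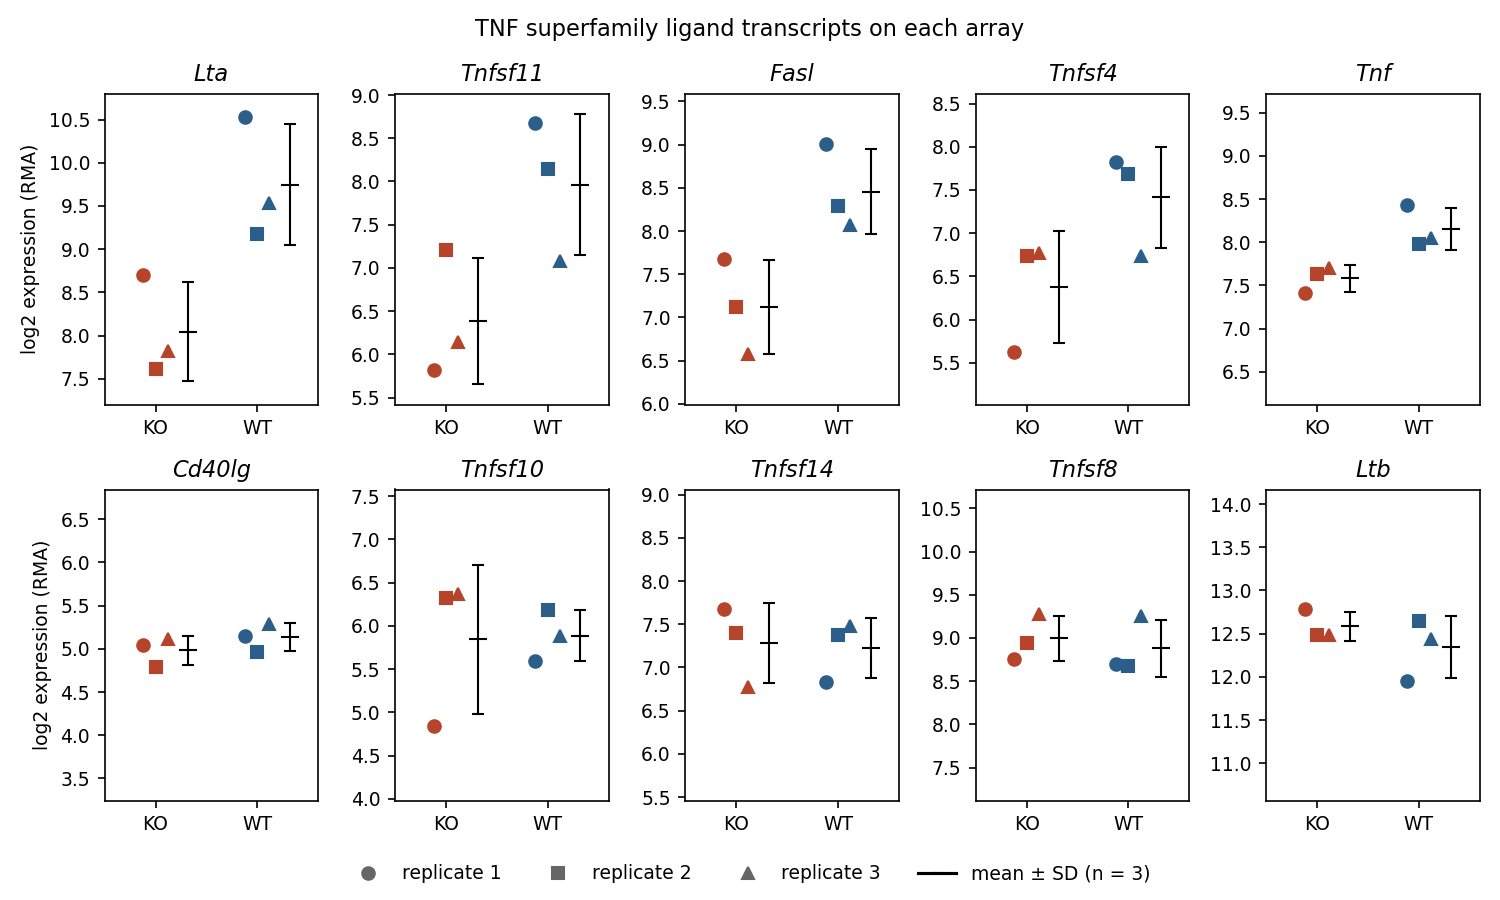
Log2 expression of the 10 ligand genes on each array, with KO to the left of WT in every panel, the replicate number as the symbol and the mean ± SD (n = 3) as a bar. All panels span the same number of log2 units, so distances can be compared between panels while levels of different genes cannot. Lta, Fasl and Tnf show no overlap between KO and WT, and Tnfsf11 overlaps by 1 pair of arrays. For Tnfsf4, WT replicate 3 lies level with KO replicates 2 and 3. The lower row shows no separation.

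Ltb encodes lymphotoxin beta, the membrane partner of lymphotoxin alpha. It measured 12.8, 12.5 and 12.5 in KO, against 12.0, 12.6 and 12.4 in WT. WT replicate 1 was the lowest array and the others lay within a narrow band. The difference was 0.24, with a 95% interval of -0.24 to 0.72, and 0.046 without WT replicate 1.

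Cd40lg encodes CD40 ligand, through which helper T cells activate B cells. It measured 5.05, 4.79 and 5.11 in KO, against 5.15, 4.96 and 5.29 in WT on a scale where the dimmest gene tested averaged 4.72. The difference was -0.15 (95% interval -0.50 to 0.20), or -0.24 to -0.054 with 1 array left out, and RMA compresses differences at such dim signals.

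Tnfsf8 encodes the ligand of CD30, a receptor of activated lymphocytes. It measured 8.76, 8.94 and 9.28 in KO, against 8.70, 8.68 and 9.26 in WT. In both genotypes replicate 3 was the highest, and the difference of 0.12 had a 95% interval of -0.39 to 0.63.

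Tnfsf14 encodes LIGHT, which binds HVEM (Tnfrsf14) and the lymphotoxin beta receptor. The brighter probe set measured 7.68, 7.40 and 6.77 in KO, against 6.83, 7.38 and 7.47 in WT. The arrays of the genotypes were interleaved, with a difference of 0.055 (95% interval -0.61 to 0.72), and the dimmer probe set differed by -0.0048.

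Tnfsf10 encodes TRAIL, a death ligand induced by interferons. It measured 4.85, 6.32 and 6.36 in KO, against 5.60, 6.18 and 5.89 in WT. KO replicate 1 was the lowest of the 6 arrays and the other KO arrays were the highest. The difference was -0.043 with all arrays (95% interval -1.05 to 0.97) and 0.46 without KO replicate 1, so this gene has no settled direction.

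**Figure D3:**
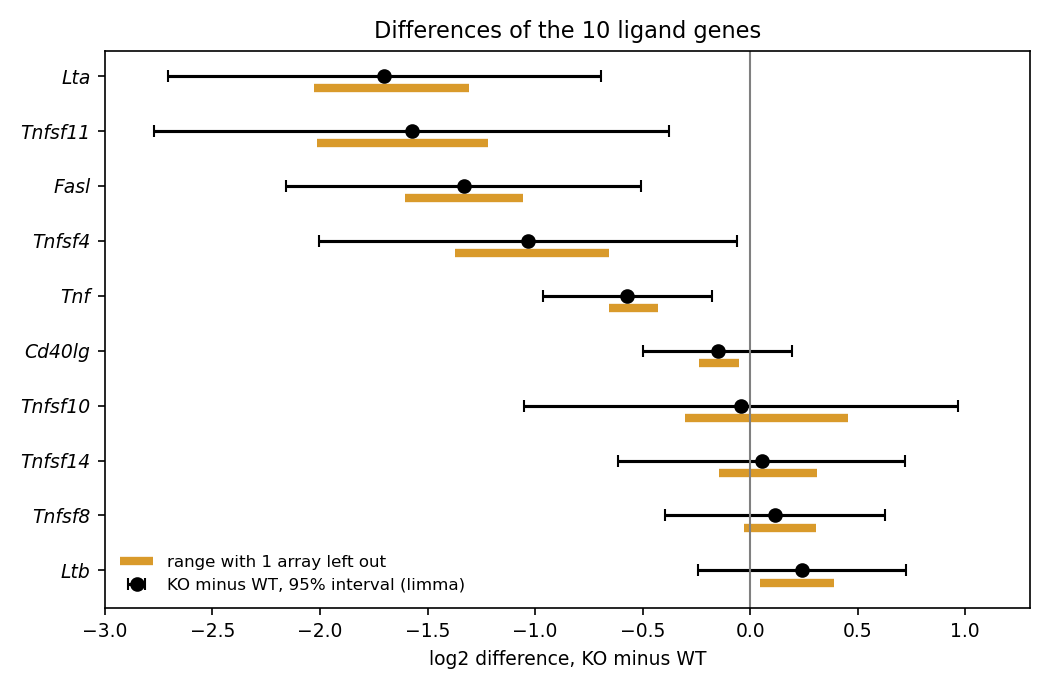
The log2 difference (KO minus WT) of each ligand gene with its 95% interval from limma, in black, and the range of the difference when 1 array at a time was left out, in orange. The orange ranges of Lta, Tnfsf11, Fasl, Tnfsf4 and Tnf lie wholly below 0, while those of Tnfsf10, Tnfsf14 and Tnfsf8 cross it.

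The 5 lower ligands stayed below 0 with any 1 array left out. Lta ranged from -2.03 to -1.31, Fasl from -1.61 to -1.06 and Tnf from -0.66 to -0.43, each with an unadjusted limma p under 0.05 in all 6 cases. Tnfsf11 ranged from -2.02 to -1.22 and Tnfsf4 from -1.37 to -0.66, and the p of both depended on the array left out. Without KO replicate 1 the count of ligands at an unadjusted p under 0.05 was 3. Without WT replicate 1, and likewise without WT replicate 2, it was also 3. Weighting the arrays gave KO replicate 3 a weight of 5.55 and WT replicate 2 one of 5.04, against 0.27 to 0.58 for the others, and then 38.5% of all genes tested passed the adjusted test, with most of the weight on those 2 arrays. The 5 lower ligands were among them, and so was Tnfsf8, higher in KO at 0.51.

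In the cell cycle list, all 18 genes tested were lower in KO, with a median of -0.63. The mean level was 9.63, 10.6 and 10.4 on KO replicates 1, 2 and 3, against 10.8 on each WT array. Each KO array lay below the WT arrays, but KO replicate 1 carried much of the difference. At an unadjusted limma p under 0.05, 4 of the 18 were lower, beside 3.86% of all genes, led by Bub1 at -0.37, Aurkb at -0.49 and Mcm5 at -0.67. Its part in the lower ligand values was not tested. The T cell activation list was mixed, with 6 of 9 genes tested lower and 3 higher and a median of -0.28. Cd44 was lower in KO at -0.57 and Cd28 higher at 0.67, each with an unadjusted limma p under 0.05, or 22.2% of the list beside 7.43% of all genes, and the transferrin receptor gene Tfrc was at -0.52.

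Other cell types in the cultures could also carry these ligands. Of the 6 B cell markers 5 were tested and 0 had an unadjusted limma p under 0.05, and the list's mean level was 6.39 to 7.09 in KO against 6.20 to 7.26 in WT, Cd79b being the brightest. Cd79b differed by 0.15. Of the 5 tested, 3 were on the higher and 2 on the lower side in KO, with a median of 0.077. The lowest difference on that list was that of Ms4a1, at -0.70, whose genotypes overlapped. Of 4 NK cell markers 3 were on the array and 2 were tested. The mean level over those 3 was 5.62 to 5.86 in KO against 5.40 to 6.11 in WT. It includes the defining marker Ncr1, which was below the filter at 3.82 to 3.86 in KO and 3.68 to 4.18 in WT. The 2 tested were brighter. Klrk1 measured 6.19 to 7.08 in KO against 6.11 to 7.37 in WT, and Klrd1 6.67 to 6.80 against 5.89 to 7.04. The brightest NK marker, Klrk1, differed by -0.13, and the other one tested, Klrd1, by 0.36, both with overlap. The macrophage list had mean levels of 4.90 to 5.21 in KO against 4.69 to 5.08 in WT, with Cd14, Lyz2 and Fcgr1 below the filter. Its brightest marker, Cd68, measured 7.10, 5.99 and 6.77 in KO against 5.50, 5.82 and 6.64 in WT, a difference of 0.63 with overlap. All 3 macrophage markers tested were on the higher side in KO, with a median of 0.29, and 0 had an unadjusted limma p under 0.05. CD8 markers lay at 6.56 to 6.92 in KO against 6.56 to 6.75 in WT, with Cd8b1, the brightest, at a difference of 0.096. Dendritic cell markers lay at 5.15 to 5.41 in KO against 5.05 to 5.30 in WT, with Flt3 at a difference of 0.17. The 2 CD8 and the 2 dendritic cell markers tested were also on the higher side, with medians of 0.058 and 0.088. Of these, 0 had an unadjusted limma p under 0.05. Neutrophil markers lay at 3.91 to 4.04 in KO against 3.92 to 4.04 in WT, and all were below the filter, Elane, the brightest, included. The ranges of both genotypes overlapped in each of these lists, whose mean levels include any markers below the filter.

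The lymphotoxin and Tnf genes allow neighbours to be compared, since Ltb, Tnf and Lta follow each other on chromosome 17 within the major histocompatibility complex. In RefSeq order they are flanked by Prrc2a, Aif1 and Lst1 on one side and by Nfkbil1, Atp6v1g2 and Ddx39b on the other. These 6 flanking genes had differences between -0.23 (Ddx39b) and 0.26 (Lst1), none with an unadjusted limma p under 0.05, beside -1.70 for Lta and -0.57 for Tnf. Within each array the difference between the genes was taken, and its mean in KO was set against that in WT. For Lta against Ltb the result was -1.94 log2 units (exact permutation p = 0.1, adjusted over 3 pairs 0.15). For Tnf against Ltb it was -0.81 (exact permutation p = 0.1, adjusted 0.15) and for Lta against Tnf -1.13 (exact permutation p = 0.2, adjusted 0.2). The smallest p that the exact test allows for 3 against 3 arrays is 0.1.

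**Figure D4:**
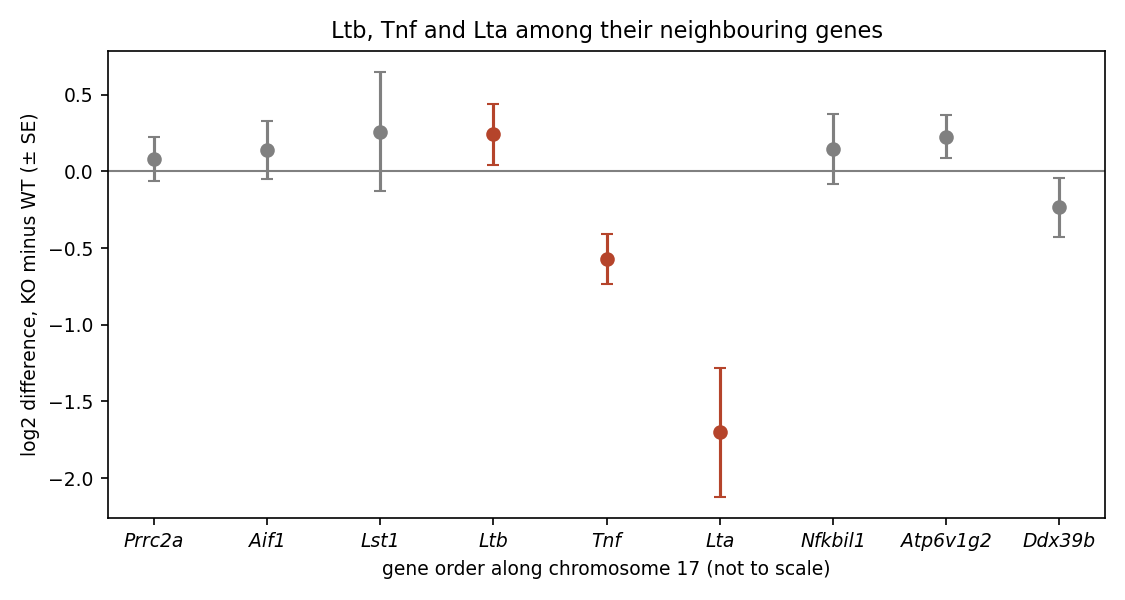
Log2 differences (KO minus WT, ± SE from limma) of Ltb, Tnf and Lta, in red, and of the 3 protein-coding genes on either side, in grey, in RefSeq order along chromosome 17. Lta at -1.70 and Tnf at -0.57 lie below their neighbours, which include Ltb at 0.24.

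Fasl and Tnfsf4, both lower in KO, also lie close together, on chromosome 1 with only Tnfsf18 between them in RefSeq order. Pigc, the third gene beyond Fasl, measured 8.09 to 8.16 in KO against 8.31 to 8.46 in WT, a difference of -0.28 with an unadjusted limma p of 0.0351. Over all the ligands, 18 neighbouring genes that are no ligands of the list were tested, of which 1, Pigc, had an unadjusted limma p under 0.05, or 5.56% beside 7.43% of all genes, and their median was 0.10. The largest difference among them was that of Ect2 near Tnfsf10, which measured 7.90 to 8.91 in KO against 8.94 to 9.22 in WT, without overlap. It differed by -0.52, with an unadjusted limma p of 0.104. Tnfsf11 on chromosome 14 had tested neighbours Dnajc15 at 0.036, Epsti1 at 0.16 and Vwa8 at -0.24.

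Receptors take up the signals of these ligands, often on other cells, though T cells carry many of them. Of 28 receptor genes listed, 21 were tested, 15 of them on the higher and 6 on the lower side in KO, with a median of 0.12. At an unadjusted limma p under 0.05, 3 were higher and 1 lower, or 19.0% of those tested, beside 7.43% of all genes. Tnfrsf8, the CD30 gene, measured 7.45, 6.13 and 6.55 in KO, against 5.40, 5.56 and 5.96 in WT, a difference of 1.07 ± 0.34 (SE). All KO arrays lay above all WT arrays, with KO replicate 1 the highest, while its ligand Tnfsf8 was at 0.12. Tnfrsf23, a decoy receptor for TRAIL in mice, was at 0.84, and Tnfrsf13c, the receptor for the B cell survival factor BAFF, was at -0.35.

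Set beside its ligand, Fas measured 9.07, 8.76 and 8.93 in KO, against 8.59, 8.67 and 8.68 in WT, so that the ligand was lower and the receptor higher without overlap in either. The Fas difference was 0.27, with an unadjusted limma p of 0.0645. Tnfrsf4, the OX40 gene, measured 12.9 to 13.2 in KO against 12.8 to 13.1 in WT and differed by 0.072, beside -1.03 for Tnfsf4. Tnfrsf1a and Tnfrsf1b, which bind both Tnf and lymphotoxin alpha, differed by 0.13 and -0.013. Tnfrsf11a, the receptor of RANKL, and Ltbr differed by -0.052 and 0.024, and Tnfrsf11b, which encodes the decoy osteoprotegerin, was below the filter. Tnfrsf11a measured 5.10 to 5.13 in KO against 5.12 to 5.24 in WT, and Ltbr 4.85 to 4.99 against 4.75 to 5.05. The dimmest gene tested averaged 4.72, so at such dim signals a difference could be missed. Tnfrsf14, the receptor of both LIGHT and lymphotoxin alpha, ranged from 5.79 to 6.76 in KO and from 4.87 to 6.90 in WT, a spread that covers its difference of 0.42. Cd40 differed by 0.063 and the TRAIL receptor gene Tnfrsf10b by 0.044, the latter also dim at 5.41 to 5.58 in KO against 5.40 to 5.48 in WT.

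**Figure D5:**
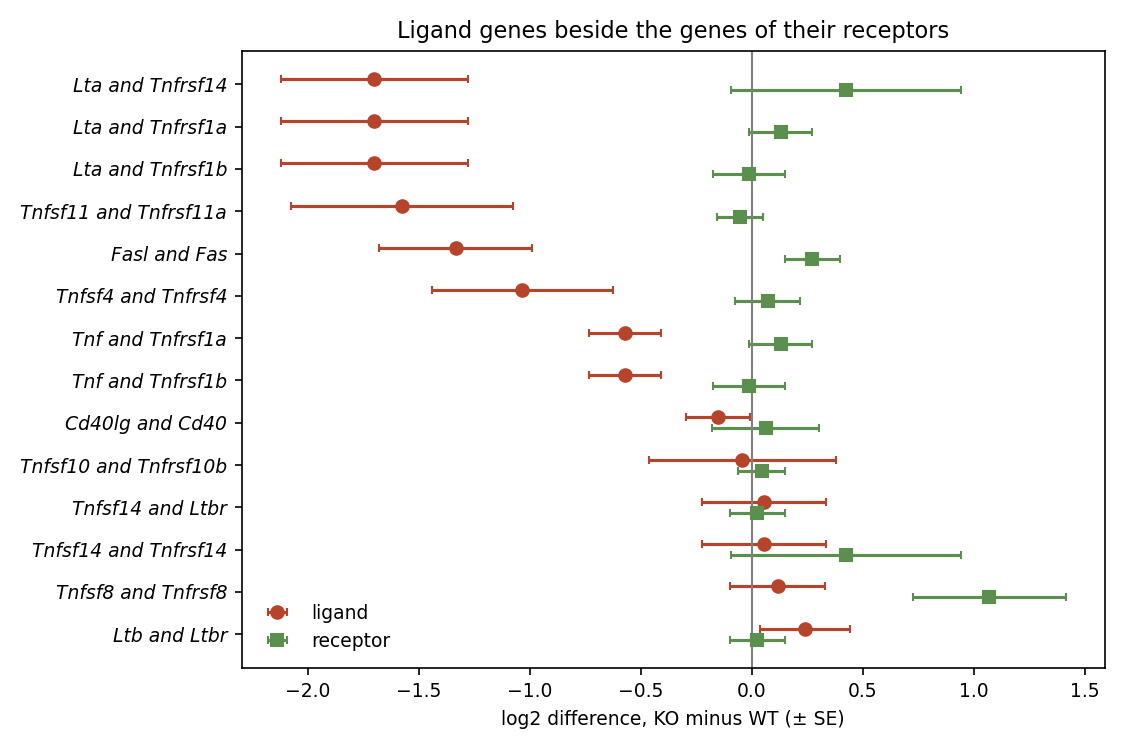
Log2 differences (KO minus WT, ± SE from limma) of each ligand, as red circles, and of a receptor it binds, as green squares, with 1 row for each pair tested. Ligands at the top of the plot, from Lta at -1.70 to Tnf at -0.57, lie left of 0 while their receptors lie between -0.052 and 0.42, and Tnfrsf8 lies at 1.07 beside Tnfsf8 at 0.12. Tnfrsf11a, Ltbr and Tnfrsf10b were dim, with means from 4.89 to 5.49 in either genotype, where a difference could be missed.

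Further ligands of the family that were tested, Tnfsf9 (the ligand of 4-1BB), Tnfsf13b (BAFF) and Eda (ectodysplasin), differed by 0.11, 0.084 and -0.11, and Cd70 was below the filter. Among 14 adaptor and TRAF genes tested, 3 were higher and 1 lower at an unadjusted limma p under 0.05, or 28.6% of the list beside 7.43% of all genes, with a median of -0.00045. The inhibitor of apoptosis genes Birc3 and Birc2, whose products bind TRAF proteins, were higher at 0.60 and 0.53, and Tnfaip3, the A20 feedback inhibitor induced by TNF, was higher at 0.89. Tank was lower at -0.31. The highest array for Birc3, Birc2 and Tnfaip3 was KO replicate 1, at 12.1, 10.2 and 7.94.

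Proteases and transcript-level regulators act on the ligands themselves. Of 6 processing genes tested 0 had an unadjusted limma p under 0.05, with Mmp7 (0.20), Adam10 (-0.29) and Sppl2b (0.13) having the smallest p. Adam17, the protease that sheds TNF, measured 8.28 to 8.74 in KO against 8.42 to 8.77 in WT. Of 16 transcription factor genes, chosen because such factors act on ligand promoters, 2 were higher at an unadjusted limma p under 0.05 and 0 lower, or 12.5% beside 7.43% of all genes. These were Jun at 1.06 and Batf at 0.72, both of the AP-1 group, followed by Nfatc3 at 0.23. Among 9 mRNA decay factors, some of which bind AU-rich elements such as that of Tnf mRNA, 2 were higher at that p and 0 lower, or 22.2% beside 7.43% of all genes. These were Zfp36l2 at 0.42 and Zfp36, which encodes tristetraprolin, at 0.87, and Rc3h2 was at 0.26. Zfp36 overlapped between genotypes, at 9.45 to 10.2 in KO against 8.26 to 9.53 in WT.

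The genes whose pattern over the 6 arrays lay closest to a ligand were found by the root mean square distance of log2 values after each gene's mean was removed. For Lta the closest of all genes tested was Fasl, at 0.35 log2 units, followed by the cytokine gene Il9 at 0.43, and for Fasl it was the kinase gene Plk2 at 0.31, followed by Lta. Tnfsf4 lay closest to Ifng, the interferon gamma gene (0.20), which measured 6.32, 7.35 and 6.87 in KO against 8.48, 8.32 and 7.23 in WT, and next to the replication licensing gene Cdc6 (0.22). Tnfsf11 lay closest to Mlf1 (0.24) and Lad1 (0.29). Tnf, with its smaller range, lay closest to Melk (0.050) and Spdl1 (0.054), a mitotic kinase gene and a gene of the spindle checkpoint, which differed by -0.60 and -0.48. Ltb lay closest to Cux1 (0.063) and Lrrc8a (0.071), Cd40lg to Apeh (0.031) and AU021092 (0.058), and Tnfsf8 to Arhgap23 (0.025) and Angptl7 (0.064). Tnfsf10 lay closest to Ptp4a3 (0.094) and Spry1 (0.10), and Tnfsf14 to Foxo3 (0.13) and Tlr1 (0.15). These distances include the difference between genotypes and are a description of 6 arrays.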

How the data were processed

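Log2 expression values were used as deposited. RMA and affy are named in the submitters' processing notes, with versions not given in the sources used here. They come from biotin-labelled RNA on an Affymetrix array, per the labels' protocols. RMA brings all arrays to a common distribution and compresses differences near background. Array medians lay between 6.45 and 6.49, no detection calls were used, and precision is limited by having 3 arrays a genotype. The limma p-values set a difference against the spread between these arrays, which limma moderates over all genes fitted. Gene symbols came from GEO's platform annotation, with 20380 of 22690 having 1 gene symbol and 64 being controls.

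A gene was represented by its brightest probe set (mean of all arrays). The dimmest 25% of genes (3098 of 12393) were dropped, leaving 9295. The genotypes were tested in R 4.3.3 using limma 3.58.1 (lmFit, eBayes, two-sided, Benjamini-Hochberg adjustment over all genes tested, threshold 0.05). Every probe set was also fitted without a filter. A difference is KO minus WT. The code was tested on simulated data. The ligands and all gene lists were chosen with earlier results of these data known, so no list was tested. Named were all ligand probe sets and their receptors, the 3 genes of each pathway list with the smallest p, the brightest marker of each cell type list and the 2 closest patterns. Other genes (Cd4, Ms4a1, markers below the filter, Adam17, Xist, Eif2s3y, Mir155hg, Tank, the genes flanking Ltb, Tnf and Lta, Dnajc15 and Epsti1 among them) were named after their values were seen. The alternatives were a replicate block, each array left out, other scalings, filters and probe set rules, other eBayes settings and array weights (statmod 1.5.0). RefSeq sequences are from assembly GRCm38.p6.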

Additional observations from a re-analysis of the deposited data

How the results depend on the processing

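Over 15 alternatives, Lta, Fasl, Tnf and Tnfsf11 were lower in KO in all 15, and Tnfsf4 in all 14 that could test it. Lta, Fasl and Tnf had an unadjusted limma p under 0.05 in each. With 1 array left out, the count of genes at an unadjusted p under 0.05 was lowest at 275 (WT replicate 1 left out) and highest at 1542 (KO replicate 2 left out), against 691 with all arrays. The count of ligands at that p ranged from 3 to 5 and that of ligands without overlap from 3 to 6, while 17% to 38.2% of all genes did not overlap, against 12.8% with all arrays. Tnfsf8 ranged from -0.028 to 0.30, Tnfsf10 from -0.30 to 0.46 and Tnfsf14 from -0.15 to 0.31. Leaving out both arrays numbered 3, an alternative chosen after seeing the data, gave 440 genes and 5 ligands at an unadjusted p under 0.05 and 7 ligands without overlap (5 lower and 2 higher in KO), beside 43.1% of all genes, so this count cannot be read against the 3 with all arrays. With array weights 3575 genes and 6 ligands passed the adjusted test (5 lower, and Tnfsf8 higher in KO at 0.51), 4711 genes had an unadjusted p under 0.05, and Ltb (-0.063), Cd40lg (0.076), Tnfsf10 (0.19) and Tnfsf14 (-0.47) changed sign. In that fit KO replicate 3 and WT replicate 2 carried most of the weight.

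With the replicate number as a block, 0 genes passed the adjusted test, 918 had an unadjusted limma p under 0.05, and 4 ligand genes and 6 ligand probe sets did. Tnfsf4 was the ligand gene no longer at that p (0.0776). In this fit the unadjusted limma p was 6.06e-05 for Lta, 0.000207 for Fasl, 0.0213 for Tnfsf11 and 0.0319 for Tnf. The adjusted p was 0.478 for each of them. The labels do not say that a number marks a shared litter, batch or day. Sex-linked transcripts matched by number. The deviations of same-numbered arrays correlated at -0.042, 0.64 and 0.40 over genes, and 4 of 6 arrays correlated best with their own number. With 3 arrays a genotype these correlations cannot decide whether the numbers mark pairs. The main fit did not take them as pairs. The adjusted test called 0 ligands under every alternative but the array weights. The number of arrays and dim signals such as that of Cd40lg limit what could be seen.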
